A study of Mus musculus with 2 samples.

Results

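The 48 genes described here encode the integrin chains, the laminin chains and 11 proteins that integrins bind or that build the basement membrane. They were chosen by name: every gene of both deposited gene tables whose identifier maps to an integrin alpha or beta symbol (18 and 8 genes) or to a laminin alpha, beta or gamma symbol (5, 3 and 3 genes), together with Fn1, Vtn, Tnc, Tnn, Nid1, Nid2, Hspg2, Npnt, Fras1, Frem1 and Frem2. They are 48 of 42462 Ensembl genes with a symbol, and the rule uses gene names alone. Total RNA from the facial prominence of B6NCrl mouse embryos, 14.5 days old, was measured, and the labels name no transgene, deletion or treatment. There is a single group of 2 biological replicates, from 10.0 ng of RNA each, so no conditions are compared and every difference below is one between 2 libraries, with no test. Per the labels each library came from 1 embryo's face, taken on different days, yet their sex entry names a pool of males and females, so the number of embryos per library cannot be settled from them.

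Integrins are receptors made of 1 alpha and 1 beta chain that span the cell membrane, bind matrix outside the cell and connect to actin or keratin filaments inside it. Laminins are trimers of an alpha, a beta and a gamma chain that assemble into a sheet under epithelia and around muscle fibres, vessels and nerves, and nidogens and perlecan join that sheet to collagen IV. Fibronectin, tenascins, vitronectin and nephronectin are ligands of several integrins, and Fras1, Frem1 and Frem2 form a complex that anchors the epidermal basement membrane. In the developing face these proteins border the surface and oral epithelium, the vessels, the muscles and the migrating neural crest mesenchyme.

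The tripeptide RGD (arginine, glycine, aspartate) is the recognition site of the integrins that contain the alpha V, alpha 5, alpha 8 or alpha IIb chain, and the matrix members differ in whether their coding sequence holds it. The most abundant long coding transcript of each member was translated by script from the GENCODE M21 sequence of build mm10 and searched for RGD. It occurred in 14 of 22 matrix members, among them 5 laminins. Of the matrix members with a protein of 1000 residues or more, 12 of 20 (60%) held it, beside 519 of 2355 (22.0%) of all protein-coding genes above that limit. The sets were not matched for length beyond it, and a longer protein has more places for a match. Among the matrix members without it were Tnc, Frem2 and the laminin chains Lamb1, Lamb2 and Lamc1. A match is a string of 3 residues and does not show that an integrin binds there. The sites in the non-laminin ligands are shown 5′ to 3′ with the 9 bases of the RGD codons in capitals and 12 bases on either side, and residues are counted from the first methionine.
Fn1, residue 1614, chr1:71606734-71606766, minus strand: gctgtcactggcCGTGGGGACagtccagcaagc
Fn1, residue 2181, chr1:71597431-71597463, minus strand: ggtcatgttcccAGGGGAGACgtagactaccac
Npnt, residue 382, chr3:132891484-132904685, minus strand, across an intron: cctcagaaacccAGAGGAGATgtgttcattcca
Vtn, residue 64, chr11:78499616-78499726, plus strand, across an intron: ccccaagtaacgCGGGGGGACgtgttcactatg
Tnn, residue 427, chr1:160139274-160139306, minus strand: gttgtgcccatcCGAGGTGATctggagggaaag
Nid1, residue 700, chr13:13483757-13483789, plus strand: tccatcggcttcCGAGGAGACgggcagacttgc
Nid2, residue 946, chr14:19797244-19797276, plus strand: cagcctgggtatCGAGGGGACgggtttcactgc
Hspg2, residue 998, chr4:137518786-137518924, plus strand, across an intron: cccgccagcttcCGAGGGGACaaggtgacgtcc
Fras1, residue 3068, chr5:96755455-96755487, plus strand: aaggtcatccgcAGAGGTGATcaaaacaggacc
Frem1, residue 205, chr4:83013830-83013862, minus strand: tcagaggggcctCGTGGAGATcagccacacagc

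Alternative exons carry the isoform results, and 5 of them are shown because transcripts of the same gene either hold or skip them. In Fn1 they are EIIIA and EIIIB, each a whole fibronectin type III repeat that plasma fibronectin lacks and cellular fibronectin can hold. The capitals in EIIIA mark the codons of a 7-residue segment of the form EDGIxEL, where x is any residue, which alpha 4 and alpha 9 integrins are known to bind in the human exon. The Tnc exon is likewise 1 additional type III repeat. In Itga3 and Itga6 the exon supplies the end of the protein inside the cell, the A form of the tail. Their capitals mark the codons of the 5 residues GFFKR, the membrane-proximal motif that alpha chains use to clasp their beta chain. That motif was found in the last 80 residues of 14 of 18 alpha chains and its first 3 residues in all 18, and in no beta chain, laminin or ligand. Each exon is written 5′ to 3′ on the minus strand, Itga6 excepted, which is on the plus strand, and for Itga3 and Itga6 the coding bases alone are given.
Fn1 EIIIB, chr1:71613763-71614035: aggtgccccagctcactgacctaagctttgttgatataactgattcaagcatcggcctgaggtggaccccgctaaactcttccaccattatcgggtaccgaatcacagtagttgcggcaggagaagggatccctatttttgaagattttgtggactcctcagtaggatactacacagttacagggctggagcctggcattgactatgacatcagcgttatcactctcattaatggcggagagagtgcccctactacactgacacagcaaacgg
Fn1 EIIIA, chr1:71603660-71603929: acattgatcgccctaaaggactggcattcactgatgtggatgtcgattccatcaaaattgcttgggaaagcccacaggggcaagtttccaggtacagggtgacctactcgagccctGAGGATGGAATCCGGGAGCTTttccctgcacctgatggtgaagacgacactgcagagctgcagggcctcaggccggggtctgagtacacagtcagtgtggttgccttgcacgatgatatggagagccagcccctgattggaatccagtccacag
Tnc, chr4:63984460-63984732: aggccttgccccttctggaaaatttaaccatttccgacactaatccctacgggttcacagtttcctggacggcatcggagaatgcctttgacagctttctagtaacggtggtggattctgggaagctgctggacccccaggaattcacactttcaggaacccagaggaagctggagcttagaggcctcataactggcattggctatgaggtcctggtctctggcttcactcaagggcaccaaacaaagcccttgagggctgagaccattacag
Itga3, chr11:95046483-95046590: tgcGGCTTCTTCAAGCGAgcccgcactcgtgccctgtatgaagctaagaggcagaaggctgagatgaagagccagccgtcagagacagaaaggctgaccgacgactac
Itga6, chr2:71853534-71853638: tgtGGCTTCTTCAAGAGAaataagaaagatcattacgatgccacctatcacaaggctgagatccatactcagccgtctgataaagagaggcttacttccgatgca

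Most of these genes were expressed in both libraries. Levels are in TPM, the share of all transcript molecules on a common scale, which is divided by transcript length and so can be compared between genes, and expressed means at least 1 TPM. Of the 48 genes, 44 (91.7%) reached 1 TPM in both libraries, beside 63.9% of all protein-coding genes. The 4 that did not were the leukocyte chains Itgal, Itgae, Itgax and Itgad. All 8 beta chains, all 11 laminin chains and all 11 ligands and basement membrane proteins were expressed. The middle level of the 44 genes was 10.7 TPM, below the 17.3 TPM of all expressed protein-coding genes, and the 48 genes together took 0.525% and 0.523% of the expected counts of replicates 1 and 2. The tissue was bulk RNA, so fewer cells of a type and less RNA per cell cannot be told apart.

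**Figure D1:**
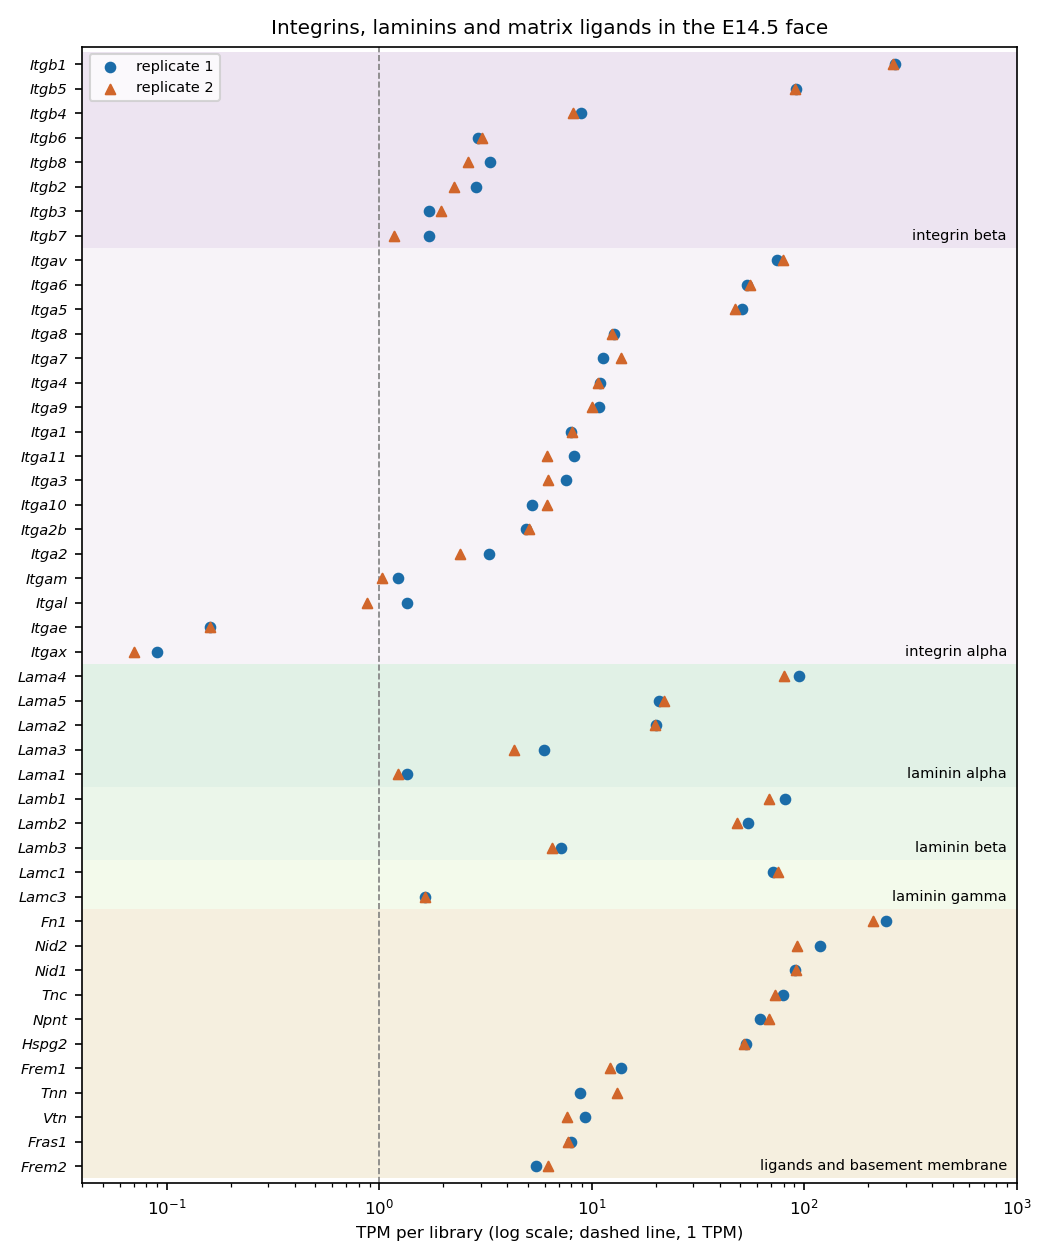
TPM of each gene in replicate 1 (circles) and replicate 2 (triangles) on a log axis, grouped by the kind of chain, with a dashed line at 1 TPM; Itgad, with no counts, and 1 gene not reported here are left out. Itgb1 lies highest at 268 and 263 TPM, and Itgal is the one gene whose libraries fall on opposite sides of the line.

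Among the beta chains Itgb1, the common partner of 12 alpha chains, stood far above the rest. It had 268 and 263 TPM in replicates 1 and 2 (266 ± 3.35, SD, n = 2) from 19599 and 24788 expected counts, the highest level of all 48 genes. Itgb5, which pairs with alpha V, followed at 91.6 and 90.1 TPM. Both libraries of each of these 2 chains lay above every other beta chain. Itgb4, the hemidesmosome chain that pairs with alpha 6 and binds keratin linkers, had 8.94 and 8.12 TPM. Itgb6, an epithelial chain that activates latent TGF-beta, had 2.93 and 3.05 TPM, and Itgb8, which also activates latent TGF-beta, had 3.31 and 2.62 TPM. The ranges of Itgb6 and Itgb8 overlapped, so their order is not settled. The leukocyte chain Itgb2 had 2.85 and 2.24 TPM and the platelet and osteoclast chain Itgb3 had 1.72 and 1.95 TPM. Lowest was Itgb7, a lymphocyte chain, with 1.71 and 1.17 TPM (1.44 ± 0.382, SD, n = 2) from 87 and 77 expected counts. At such counts the ratio of Itgb7 between libraries was 0.725 in CPM, counts relative to the library total, with an exact 95% interval from 0.527 to 0.997 for counting error. That total includes added spike-in RNAs, 3.22% of it in replicate 1 and 5.43% in replicate 2, so a bound this near 1 depends on them.

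The alpha chains spread over a wider range. Itgav, the alpha V chain that binds vitronectin, fibronectin and latent TGF-beta, had the highest gene level, 74.5 and 79.7 TPM (77.1 ± 3.66, SD, n = 2). Itga6, a laminin receptor chain, had 53.6 and 55.4 TPM, and Itga5, the main fibronectin receptor chain, had 50.7 and 47.2 TPM. These 3 chains lay above all other alpha chains in both libraries. Itga8, the nephronectin receptor chain, had 12.8 and 12.5 TPM and the muscle laminin receptor chain Itga7 had 11.3 and 13.7 TPM, so that their ranges overlapped. Itga4 and Itga9, which bind fibronectin or tenascin without RGD, had 11.0 and 10.7 TPM and 10.9 and 10.1 TPM, again with overlapping ranges. The collagen receptor chains came lower: Itga1 with 7.99 and 8.09 TPM, Itga11 with 8.23 and 6.15 TPM, Itga10 with 5.26 and 6.19 TPM and Itga2 with 3.27 and 2.39 TPM. Summed, the 4 collagen-binding chains held 24.8 and 22.8 TPM, the 3 laminin-binding chains 72.5 and 75.4 TPM and the 4 RGD-binding chains 143 and 144 TPM. Itga3, the third laminin receptor chain, had 7.55 and 6.25 TPM, and the platelet chain Itga2b had 4.92 and 5.05 TPM.

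The leukocyte alpha chains marked the lower end. Itgam, of macrophages, had 1.22 and 1.03 TPM from 105 and 91 expected counts. Itgal, of lymphocytes, had 1.35 and 0.88 TPM from 120 and 97 expected counts, which puts it above the limit of 1 TPM in replicate 1 and below it in replicate 2. Itgae, of intraepithelial lymphocytes, had 0.16 TPM in each library from 12 and 15 expected counts, and Itgax, of dendritic cells, had 0.09 and 0.07 TPM from 7 counts in each. Itgad had 0 counts in both, which allows up to 0.0610 and 0.0472 TPM at 3 counts. Of leukocyte markers 5 of 5 were expressed in both libraries, beside 63.9% of all protein-coding genes. Their summed level was 259 and 294 TPM, from Ptprc at 2.77 and 2.98 TPM to Lyz2 at 88.3 and 116 TPM. The list, with Csf1r, Fcer1g and Tyrobp besides, was not split by kind of leukocyte, so it does not give the level of lymphocytes. Of 5 platelet markers 3 were expressed in both, with a summed level of 82.6 and 103 TPM, almost all of it from Pf4 at 75.7 and 95.5 TPM. The part of these cells in the levels of Itgam, Itgal, Itgb2, Itga2b and Itgb3 was not tested.

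Set against known pairs, the alpha chain was the lower one in every receptor of Itgb1 but in only part of the others. Of 24 heterodimers described for these chains, 20 had both chains expressed in both libraries, and in 18 the lower chain was the alpha chain. These include all 12 pairs with Itgb1, which had to come out so because Itgb1 was the highest of the 48 genes. Among pairs without Itgb1, the alpha chain was lower for Itgav with Itgb5 and for the leukocyte alpha chains. In the rest the beta chain was lower. The 12 alpha partners of Itgb1 summed to 257 and 258 TPM, beside 268 and 263 TPM for Itgb1 itself. That sum counts Itgav, Itga6 and Itga4 in full, though they also pair with other beta chains, so it does not show a balance of chains. Counted from long coding transcripts alone, explained further on, the partners summed to 170 and 164 TPM and Itgb1 had 267 and 260 TPM, so that the sums lay near each other only by the first measure. Of the receptors of Itgav, the pair with Itgb5 had its lower chain at 77.1 TPM, against 2.99 TPM for the pair with Itgb6, 2.97 TPM for that with Itgb8 and 1.84 TPM for that with Itgb3. The hemidesmosome pair of Itga6 and Itgb4 was limited by Itgb4 at 8.53 TPM. Co-expression in bulk tissue does not show that 2 chains meet in the same cell.

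The laminin chains of vessels and mesenchyme were higher than the epidermal chains Lama3 and Lamb3. Lama4, the alpha chain of vascular and mesenchymal laminins, had 94.4 and 80.5 TPM (87.4 ± 9.84, SD, n = 2). Lama5, of epithelial and endothelial basement membranes, had 20.7 and 21.8 TPM and Lama2, of muscle and peripheral nerve, had 19.9 ± 0.177 TPM (SD, n = 2). Lama3, of the epidermis, had 5.96 and 4.29 TPM, and Lama1, of the early embryo, was lowest with 1.35 and 1.22 TPM (1.29 ± 0.0919, SD, n = 2). Lama4 lay above every other alpha chain in both libraries, and both libraries of Lama2 lay just below those of Lama5.
Of the beta chains, Lamb1 had 81.2 and 68.1 TPM (74.7 ± 9.21, SD, n = 2), Lamb2 had 54.1 and 48.1 TPM and the epidermal chain Lamb3 had 7.17 and 6.50 TPM (6.84 ± 0.474, SD, n = 2). The gamma chain Lamc1, shared by most trimers, had 71.4 and 75.4 TPM (73.4 ± 2.77, SD, n = 2) and Lamc3 was lowest with 1.64 TPM in each. Lama3 and Lamb3 thus lay between 4.29 and 7.17 TPM, below Itgb4, a receptor chain for epidermal laminin, with 8.94 and 8.12 TPM.

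All 11 laminin trimers examined had every chain expressed in both libraries. The trimer of Lama4, Lamb1 and Lamc1, known as laminin-411, had the highest lowest chain by mean, Lamc1 at 73.4 TPM, followed by laminin-421 with Lamb2 at 51.1 TPM. In replicate 2 the lowest chain of laminin-411 was Lamb1, with 68.1 against 75.4 TPM for Lamc1. By long coding transcripts the lowest chains of these 2 trimers were at 39.5 and 38.2 TPM. In the trimers of Lama5, Lama3 and Lama1 with Lamb1 and Lamc1 the alpha chain was the lowest, at 21.3, 5.13 and 1.29 TPM. Trimers cannot be counted from RNA of single chains, since Lamc1 and Lamb1 are shared by several of them.

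**Figure D2:**
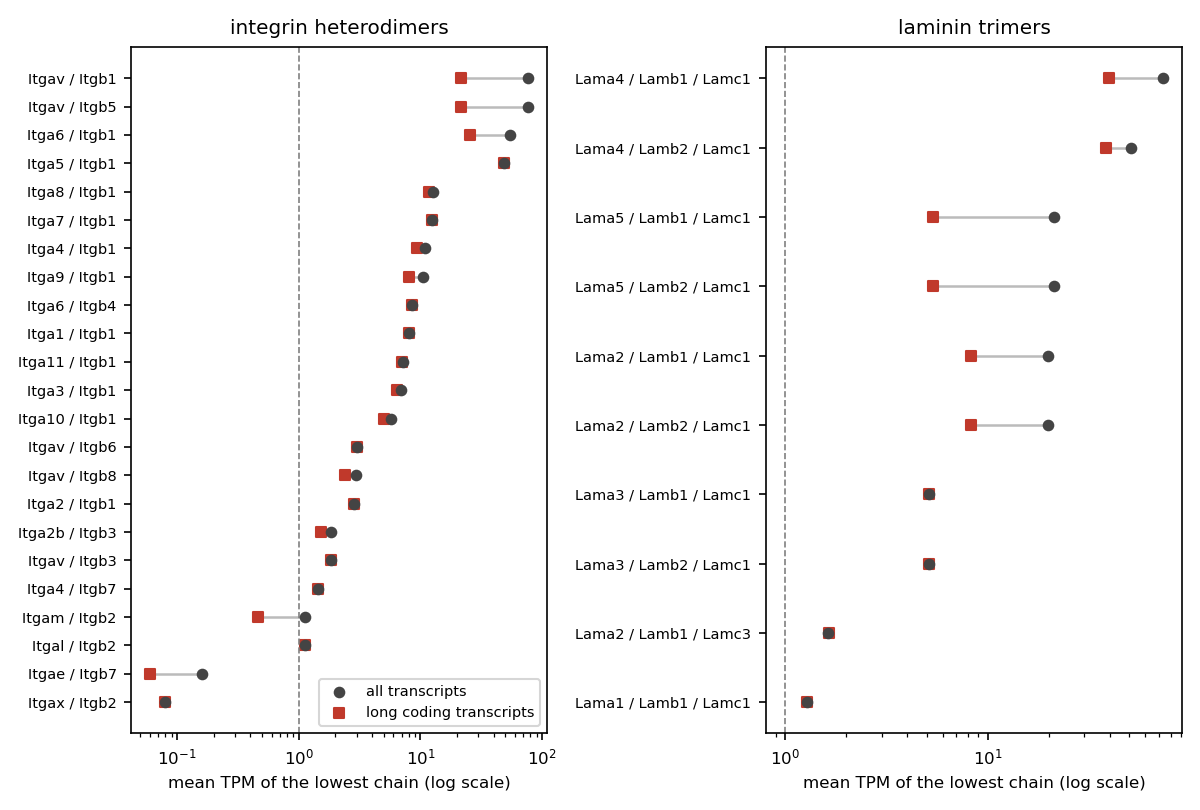
Mean TPM (n = 2) of the lowest chain of each integrin heterodimer (left, Itgad with Itgb2 left out at 0) and of 10 laminin trimers (right) on log axes, from all transcripts (circles) and from long coding transcripts alone (squares), with a dashed line at 1 TPM. The pairs of Itgav with Itgb1 and Itgb5 lie at 77.1 TPM by the first measure and 21.4 TPM by the second, and the trimers of Lama5 with Lamb1 or Lamb2 and Lamc1 at 21.3 and 5.37 TPM.

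Among the ligands and linkers, Fn1 had the highest level. Fn1, fibronectin, had 242 and 210 TPM (226 ± 22.9, SD, n = 2), second of the 48 genes after Itgb1. The nidogens, which join laminin to collagen IV, had 119 and 92.9 TPM for Nid2 and 90.6 and 92.0 TPM for Nid1. Nid2 overlaps Rtraf on the opposite strand, which had 210 and 196 TPM, and whether the counting used strand is not given in the sources used here. Tnc, tenascin-C of mesenchyme next to epithelium and of tendon, had 79.1 and 72.9 TPM. Npnt, nephronectin, had 61.8 and 68.4 TPM, above its receptor chain Itga8 in both libraries, and Hspg2, perlecan, had 53.2 and 52.1 TPM. The Fraser complex came lower, with Frem1 at 13.7 and 12.2 TPM, Fras1 at 7.96 and 7.70 TPM and Frem2 at 5.48 and 6.24 TPM (5.86 ± 0.537, SD, n = 2), the lowest of the 11. Tnn, tenascin-W of bone and periosteum, had 8.82 and 13.1 TPM. Vtn, vitronectin, a protein of blood plasma made mainly by the liver, had 9.29 and 7.67 TPM. The 4 liver markers summed to 3.15 and 62.6 TPM. Alb had 1.12 and 0.97 TPM and Apoa2 had 1.55 and 1.41 TPM, whereas Ttr, which other tissues such as the choroid plexus also express, had 0.45 and 60.2 TPM. The part of liver-type RNA in the level of Vtn was not tested.

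Part of several gene levels came from short or non-coding transcripts. A long coding transcript here means a protein-coding transcript whose coding sequence is at least 50% of the longest of its gene. Such transcripts held 90% or more of the TPM of 26 genes in both libraries, among them Itgb1, Itga5, Nid1, Nid2 and Tnc, and under 50% of the TPM of 6 genes. For Lama5 they held 26.6% and 24.0%, so that its level fell from 21.3 to 5.37 TPM and its rank among the 48 genes from 16 to 32. For Itgav they held 28.6% and 27.0%, or 21.4 TPM in place of 77.1, because the 463-base transcript Itgav-205 took 65.0% and 68.3% of the gene's TPM. For Itga6 they held 48.6% and 45.6%, with 43.9% and 45.9% in Itga6-203, a non-coding transcript of 3 exons. The others under 50% were Lama2 (38.8% and 44.7%), Itga2b (33.5% and 27.7%) and Itgam (38.5% and 43.7%). Measured this way, Itga5 with 48.9 TPM was the highest alpha chain, above Itga6 with 25.7 TPM and Itgav with 21.4 TPM, and the Lama2 trimers with a lowest chain of 8.29 TPM stood above those of Lama5 with 5.37 TPM. Expected counts divided otherwise: 90.1% and 89.0% of those of Lama5 and 86.9% and 86.0% of those of Itgav were in long coding transcripts, since a short transcript reaches a high TPM from few reads. Fn1, Lamc1 and Lama4 kept 51.1% and 51.7%, 55.0% and 52.7%, and 62.1% and 63.9% of their TPM in long coding transcripts. Which of the 2 measures is nearer to the RNA of each gene was not tested.

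**Figure D3:**
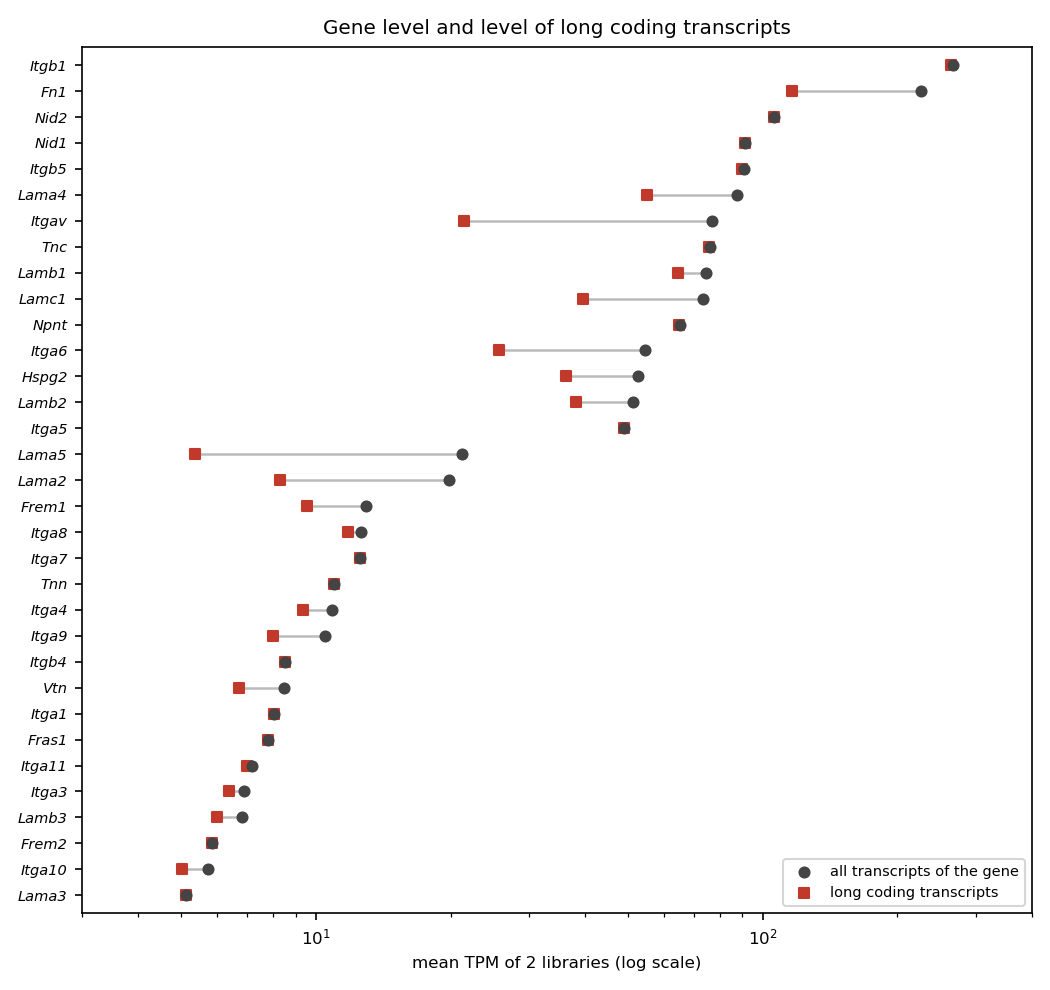
Mean TPM (n = 2) of genes with a mean of 5 TPM or more, from all transcripts (circles) and from long coding transcripts alone (squares), on a log axis. The gap is widest for Lama5 (21.3 against 5.37 TPM) and Itgav (77.1 against 21.4 TPM), and absent for Itga5 and the nidogens.

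Fn1 transcripts mostly held both cellular exons among those that code for fibronectin. The transcript Fn1-201, which holds EIIIA and EIIIB, had 45.7% and 42.3% of the gene's TPM. Transcripts with EIIIA had 50.9% and 50.7% of the gene's TPM (50.8% ± 0.113, SD, n = 2) and transcripts with EIIIB had 45.7% and 42.3% (44.0% ± 2.42, SD, n = 2). Much of the rest was Fn1-202, a non-coding transcript with a retained intron that had 39.9% and 41.4% and that skips EIIIA. Within long coding transcripts alone, those with EIIIA had 99.5% and 98.1% of the TPM that holds or skips the exon, and those with EIIIB had 89.5% and 81.9%. Over all transcripts that hold or skip the exon, non-coding ones included, the order was the opposite, with 55.9% and 54.5% for EIIIA and 85.0% and 78.0% for EIIIB. EIIIB was lower in replicate 2 by each of these shares.

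Tnc, whose additional repeats vary between tissues, had 1 leading transcript. Tnc-204 had 59.6% and 59.3% of the gene's TPM (59.4% ± 0.212, SD, n = 2), Tnc-201 had 20.8% and 23.4% and Tnc-203 had 19.6% and 17.0%. Tnc-201 and Tnc-204 have coding sequences of equal length, 6057 bases, and that of Tnc-203 has 6330, the difference being the exon of 273 bases shown above. Transcripts without that exon therefore held 80.4% and 82.6% of the Tnc TPM. Only these 3 long coding transcripts of Tnc were quantified, so forms with other sets of repeats could not be seen.

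Other members showed a preference between their coding isoforms. Of the TPM of long coding transcripts that hold or skip the A-tail exon, transcripts with it had 98.1% and 92.6% in Itga6 and 87.3% and 85.9% in Itga3. For Itga6 the share depended on the transcripts counted: it was 50.9% and 44.9% over all transcripts that hold or skip the exon, where the non-coding Itga6-203 counts as skipping it, and 46.4% and 40.0% of all gene TPM. Lama3-202, the short form, had 94.4% and 93.1% of the Lama3 TPM, and the long form Lama3-201 had 5.61% and 6.86%. In Itgb4 the transcripts with the exon of 159 bases, which adds to the tail inside the cell, had 23.3% and 20.7% of the TPM. In Npnt the exon of 51 bases was held by 15.3% and 13.2% of the TPM. Itgb5-202 had 94.0% and 94.8% of the Itgb5 TPM, and Itgb1-201 had 99.5% and 99.0% of the Itgb1 TPM. The assignment moved between libraries for some near-identical coding transcripts. Itga10-202, with 3498 coding bases beside 3501 in Itga10-201, had 0% in replicate 1 and 22.9% in replicate 2. In Itgam, Itgam-201 had 38.7% and 0% and Itgam-203 had 0% and 43.4%. The deposited files hold estimates of transcript shares and not reads across exon junctions, so the precision of these shares is not known from counting alone. They also hold lower and upper bounds of each transcript's TPM, which were wide for some forms. Itgb4-201, with the exon of 159 bases, had bounds of 0.104 to 2.56 TPM in replicate 1 and 0.00226 to 1.69 TPM in replicate 2. Itga3-203, without the A-tail exon, had 4.36e-05 to 2.51 and 0.0277 to 1.93 TPM. Those of Lama3-202 were narrower, 5.01 to 5.93 and 3.58 to 4.25 TPM.

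**Figure D4:**
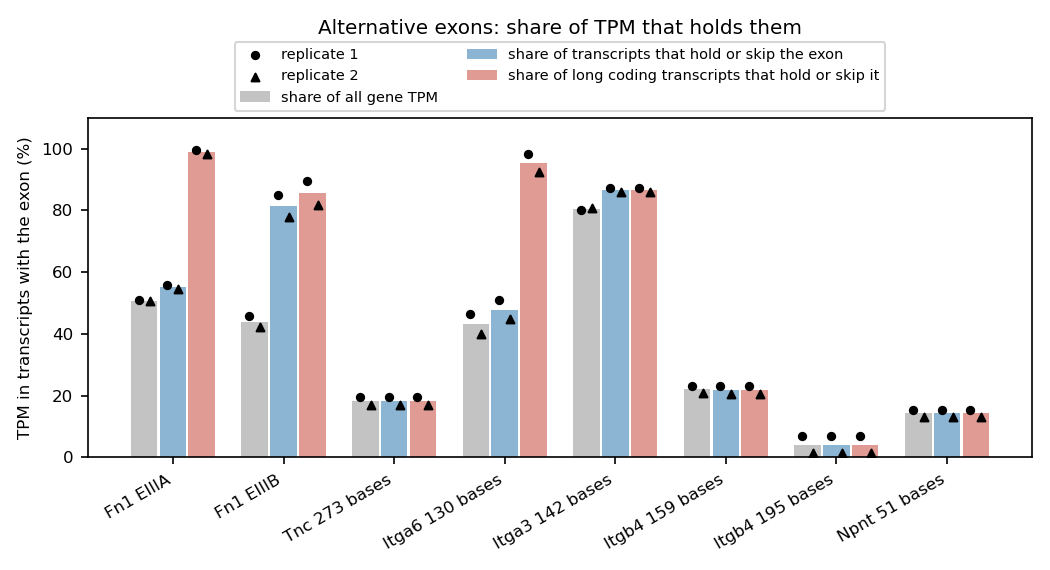
Percent of TPM in transcripts that hold each alternative exon, as bars of the mean of 2 libraries with each library as a point, over all gene TPM, over transcripts that hold or skip the exon and over the long coding ones among these. For Fn1 EIIIA the share is 50.8% of all gene TPM and 99.5% and 98.1% by the last measure, whereas for Tnc the 3 shares lie within a few points of one another.

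Between the 2 libraries no member passed 2-fold. With log2(TPM + 1), among 34 members with a mean of 5 TPM or more, 0 differed by 2-fold or more, beside 0.472% of 11438 genes that were higher in replicate 2 and 0.236% that were lower. The members' log2 ratios ran from -0.40 for Lama3 to 0.52 for Tnn, with a median of -0.03, and the median over all genes was -0.15. Of the members 24 lay above the median of all genes and 10 below it. Against 0 the split was 12 above and 22 below in TPM, but 25 above and 9 below after scaling by TMM or by DESeq2 size factors, so the sign of the members' median depends on the scaling. Added spike-in RNAs took 3.22% of the expected counts in replicate 1 and 5.43% in replicate 2, and they enter the TPM total. They also enter the library totals behind the CPM ratios below. Interval bounds near 1, such as the upper bounds of 0.993 for Itga3 and 0.999 for Tnc, depend on them.

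Tnn stood apart from the other members. Its expected counts were 995 and 1907, a CPM ratio of 1.57 (counting interval 1.45 to 1.70), which overlaps the interval of no other member with a mean of 5 TPM or more. Of all genes with a mean of 5 TPM or more, 1.44% had a log2 ratio at or above that of Tnn. Bone markers moved alongside: 4 bone genes summed to 3543 and 4476 TPM, with Ibsp at 556 and 819 TPM and Bglap at 6.44 and 25.3 TPM, and their part in the ratio of Tnn was not tested. Itga7, of muscle, had the next highest CPM ratio, 1.28 with an interval of 1.17 to 1.39, beside a summed level of 5 muscle genes of 2342 and 3243 TPM and a median log2 ratio of -0.02 over them. Of these genes Acta1, with 1743 and 2448 TPM, and Ckm, with 218 and 430 TPM, were higher in replicate 2. Myod1 (41.0 and 35.4 TPM), Myog (177 and 170 TPM) and Ttn (163 and 160 TPM) were lower there, and the part of muscle in the ratio of Itga7 was not tested. At the other end Lama3 had a CPM ratio of 0.771 (0.690 to 0.860), Itga11 0.792 (0.716 to 0.876) and Nid2 0.828 (0.807 to 0.850). Beside the ratio of Lama3, 5 of 6 surface epithelium markers were lower in replicate 2, among them Cdh1 with 38.3 and 28.4 TPM, Epcam with 71.8 and 55.5 TPM and Trp63 with 32.8 and 27.0 TPM, and Krt15 was higher with 126 and 180 TPM. Their median log2 ratio was -0.23, beside a median of -0.15 and an upper quartile of -0.04 over all genes with a mean of 5 TPM or more. Most genes were thus lower in replicate 2 by this measure. Among other epidermal members, Lamb3 had a CPM ratio of 1.23 (1.09 to 1.39), though its TPM was 7.17 and 6.50. Frem2 had 1.21 (1.12 to 1.29), Fras1 1.02 (0.971 to 1.08), Itgb4 0.955 (0.876 to 1.04) and Frem1 0.888 (0.837 to 0.943). The part of epithelium in the ratio of Lama3 was not tested. The counting interval excluded the ratio of 1 for 24 of the 34 members, beside 53.8% of 11422 genes with a count in both libraries. It lay above 1 for 15 members, beside 13.5% of all genes, and below 1 for 9, beside 40.2%. Relative to the median CPM ratio of all genes, 0.950, it lay above for 18 members, beside 24.9% of all genes, below for 5, beside 23.1%, and across it for 11. These intervals cover counting error only and not the biological spread. They also narrow as counts rise: Itgb1, with 19599 and 24788 expected counts, excluded 1 at a ratio of only 1.04. Members and all genes were not matched for counts, so these shares do not show a shift particular to the members. Nor are CPM divided by transcript length, which differed between libraries for some members. Lama2, like Lamb3, was higher in replicate 2 in CPM (ratio 1.18) but not in TPM (log2 ratio -0.02).

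**Figure D5:**
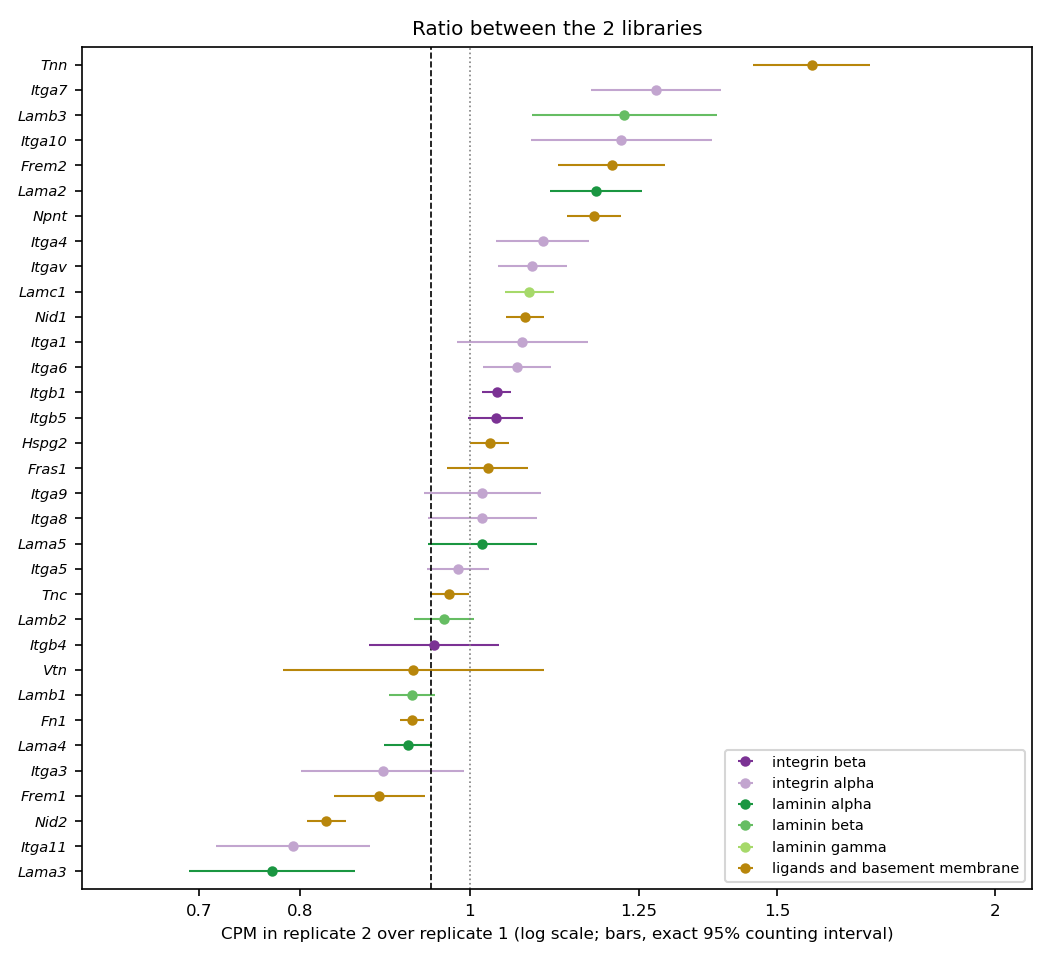
CPM in replicate 2 divided by CPM in replicate 1 for genes with a mean of 5 TPM or more, on a log axis, coloured by the kind of chain, with exact 95% counting intervals; the dotted line is a ratio of 1 and the dashed line the median of all genes, 0.950. Tnn is highest at 1.57 and Lama3 lowest at 0.771.

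Genes that act with these receptors were expressed as well. All 20 integrin adaptors, which connect beta tails to actin or signal there, were expressed in both libraries, beside 63.9% of all protein-coding genes. They ran from Parvg with 1.71 and 1.82 TPM to Ilk, integrin-linked kinase, with 362 and 360 TPM. All 4 hemidesmosome partners were expressed, from Col17a1, the transmembrane collagen XVII, with 17.7 and 16.4 TPM to Plec, plectin, with 49.3 and 52.0 TPM. Of 20 other basement membrane genes 16 were expressed, the highest by mean being Fbln1, fibulin-1, with 215 and 179 TPM and the lowest by mean Frem3, a paralogue of Frem1, with 0.16 and 0.06 TPM. In replicate 2 the collagen IV chain Col4a1, with 185 and 193 TPM, stood above Fbln1. Of 22 other integrin ligands 18 were expressed. The highest was Postn, periostin, with 687 and 669 TPM, and the lowest by mean were the fibrinogen chains Fga, with 0.08 and 0.02 TPM, and Fgb, with 0.03 and 0.07 TPM. None of the genes of these 4 lists with a mean of 5 TPM or more differed by 2-fold between the libraries, and the median log2 ratios of the lists were -0.11, -0.03, -0.19 and -0.20.

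Markers of surface epithelium, facial mesenchyme and endothelium were expressed in both libraries. Of all protein-coding genes 63.9% were. The platelet and liver lists were expressed only in part, with 3 of 5 and 1 of 4 markers. Bulk RNA does not show which cells carry the receptors. All 6 surface epithelium markers were expressed, with a summed level of 693 and 696 TPM, as were all 5 facial mesenchyme markers with 336 and 285 TPM and all 5 endothelial markers with 161 and 147 TPM. The 4 cartilage markers summed to 664 TPM in replicate 1 and 376 TPM in replicate 2. Beside that difference, Itga10, a collagen receptor chain of cartilage, had 464 and 692 expected counts and a CPM ratio of 1.22 (1.08 to 1.38).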

How the data were processed

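Total RNA of 2 libraries of 1 group was analysed, with 30919488 expected counts in replicate 1 and 37738872 in replicate 2. The deposited expected counts are estimates of reads for each gene and transcript, per the file headers. TPM and FPKM values were deposited beside them, as were posterior mean TPM values and the percent of a gene's TPM in each transcript, per the file headers. The build is mm10 and the tables use GENCODE M4, as the deposited companion texts say. Aligner, quantifier and use of strand: not given in the sources used here. Symbols, structures and sequences were taken from GENCODE M21, also on mm10, through unversioned Ensembl identifiers (98.0% of genes matched). Of 230 transcripts of the 48 genes, 213 had the same length there and 4 had no structure there.

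A gene was called expressed at 1 TPM. Ratios used log2(TPM + 1) for genes with a mean of 5 TPM or more. CPM are expected counts scaled to the library total, spike-in RNAs included. Exact binomial intervals (95%) on rounded counts, like the floor of 3 counts, hold counting error alone. Counts were whole for 35 of the 48 genes, within 0.005. Every member could be named, and values in full were given for the highest and lowest of each kind of chain, for those near 1 TPM and for isoforms at 10% or more. One member is counted in the totals but not reported here by name or value. The members and lists were chosen with earlier results of these data known. The long coding transcripts, and the share among transcripts that hold or skip an exon, were added after seeing the data. Counting steps were tested on simulated data. Tables were handled with pandas 2.3.3 and numpy 2.4.6 in Python 3.11.15, intervals computed with scipy 1.17.1 and figures drawn with matplotlib 3.10.9. In R 4.3.3, edgeR 4.0.16 and DESeq2 1.42.0 gave scaling factors alone.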

Additional observations from a re-analysis of the deposited data

How the results depend on the processing

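The number of members expressed in both libraries, 44, was 39 to 45 under thresholds of 0.5 and 2 TPM, 1 FPKM, posterior mean TPM and long coding transcripts, and 44 to 45 without either replicate. The count of members past 2-fold was 0 under every alternative run. The median log2 ratio of members, -0.03, became 0.11 with edgeR TMM (0.107) and DESeq2 size factors (0.106) and 0.12 when centred on the median of all genes, which moved by 0.15 under that centring. The Fn1 share with EIIIA, 50.8%, was 98.0% of protein-coding transcripts, 70.3% of expected counts and 55.2% of transcripts that hold or skip the exon, and 50.7% to 50.9% without either replicate. That with EIIIB, 44.0%, was 84.9%, 61.3% and 81.5% in the same order, and 42.3% to 45.7% without either replicate. The Tnc top share, 59.4%, was 60.0% of expected counts and 59.3% to 59.6% without either replicate. The mean TPM of 22 of the 48 members moved by more than 1 SD when long coding transcripts alone were counted. Leaving out a replicate leaves no ratio between libraries, so it was not run for ratios. No paired analysis was possible because there is a single group. With 2 libraries, the biological spread is known poorly, and genes under 100 counts, such as Itgb7, are limited by depth as well.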

Other observations

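Several of these genes lie next to each other in mm10. On chromosome 13 the collagen receptor genes Itga2 and Itga1 are separated by 20995 bases and had 2.83 and 8.04 TPM. On chromosome 7 Itgam, Itgax and Itgad follow one another with gaps of 11055 and 3718 bases, and all of them were near or under 1 TPM. Itgad, without a count, overlaps on the opposite strand Cox6a2, a muscle gene with 98.3 and 132 TPM, and Lamb3 overlaps G0s2, with 34.5 and 44.0 TPM.

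In the last 80 residues of the beta chains, the motif NPxY or NPxF, where talins and kindlins bind, was found in 6 of 8 chains. It was not found there in Itgb4 and Itgb8. For Itgb4, with a protein of 1753 residues, the searched stretch is only the end of a long tail.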
